A study of Mus musculus with 6 samples.

Results

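The genes described here are 10 members of the matrix metalloproteinase (MMP) family and of its inhibitors, the TIMPs: Mmp2, Mmp3, Mmp8, Mmp9, Mmp12, Mmp13, Mmp14, Mmp19, Timp1 and Timp2. They were taken by symbol from a table of 21760 gene symbols measured by RNA sequencing in macrophages from mouse tumours. The table holds 26 Mmp and Timp symbols in all, and all 10 members passed the filter on low counts. The tumours grew from MC38, a mouse colon carcinoma line. C57BL6 mice carried them subcutaneously for 16 days, with no other treatment, and macrophages were then sorted by FACS. Macrophages came from tumours of Xkr8 knockout (KO) clone 2 (2 mice), of Xkr8 KO clone 1 (2 mice), and of wild-type (WT) MC38 cells (2 mice). The knockout is labelled as one of the tumour, so the macrophages themselves are cells of the host mouse. Each KO line is a single clone, so an effect of the knockout and one of the clone's other traits cannot be told apart. Xkr8 is a scramblase that exposes phosphatidylserine on dying cells.

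MMPs are secreted or membrane-anchored zinc proteases that cut collagens, elastin, proteoglycans and other proteins outside the cell, and most are made as inactive proenzymes. TIMPs bind their active sites, and TIMP2 also takes part in the activation of proMMP2 by MMP14 at the cell surface. In tumours, macrophages are a known source of several MMPs, and MMP12 is also called macrophage elastase.

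The 6 libraries held 20038047 estimated counts in WT mouse 2 and 37090034 to 40022755 in the other 5. WT mouse 2 stands apart. The ribosomal RNA precursor Rn45s took 24.6% of its counts, against 1.46% to 7.12% elsewhere, and its correlations with the other libraries were lower (Pearson r = 0.896 to 0.919 of log2(CPM + 1) across genes, against 0.971 to 0.995 among the other 5). Levels are given as CPM, counts scaled to library size, after correction by the trimmed mean of M values (TMM). All 10 macrophage markers examined, among them Adgre1, Csf1r and C1qa, were detected in every library, with a summed level of 10970 to 12890 CPM in the KO libraries and 10330 to 13060 CPM in the WT libraries. Markers of other cell types were also present. Fibroblast markers summed to 2476 to 3952 CPM in the KO libraries, against 4160 CPM in WT mouse 1 and 12010 CPM in WT mouse 2, most of it from Col3a1, without which the sums were 639 to 773 CPM in KO and 526 and 695 CPM in WT. Monocyte markers summed to 719 to 1121 CPM in the KO libraries and 224 to 581 CPM in the WT libraries. T and NK cell markers summed to 74.8 to 119 CPM in the KO libraries and 17.3 to 23.4 CPM in the WT libraries. Dendritic markers ranged over 82.7 to 99.3 CPM in KO against 62.2 to 109 CPM in WT, endothelial markers over 46.6 to 60.2 CPM in KO against 21.5 to 26.1 CPM in WT, and epithelial markers over 11.1 to 12.8 CPM in KO against 15.6 to 44.1 CPM in WT. In bulk samples such as these, fewer cells of a type and less RNA per cell cannot be told apart.

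The family was led by Mmp14 and Timp2. Divided by exon length, so that genes can be set side by side, mean levels over the 6 libraries were 81.5 CPM per kb for Mmp14, 60.0 for Timp2, 37.0 for Mmp9, 36.2 for Mmp2, 14.96 for Timp1, 14.6 for Mmp12, 9.45 for Mmp13, 7.03 for Mmp19, 0.972 for Mmp3 and 0.675 for Mmp8. Mmp14 was above Timp2 in every library, at 69.8 to 102 CPM per kb against 46.0 to 71.7. The order was not the same in every library: in mouse 2 of KO clone 1, Mmp9 (76.4 CPM per kb) was above Mmp14 (69.8), and Mmp9 and Mmp2 (59.3) were above Timp2 (46.0). The neighbours Mmp9 and Mmp2 also changed places between libraries, as did Timp1 and Mmp12, Mmp12 and Mmp13, Mmp13 and Mmp19, and Mmp3 and Mmp8. The lengths are the union of all annotated exons, which for Mmp12 comes to 7237 bases, so that the level per kb of a gene with long alternative exons is understated.

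**Figure D1:**
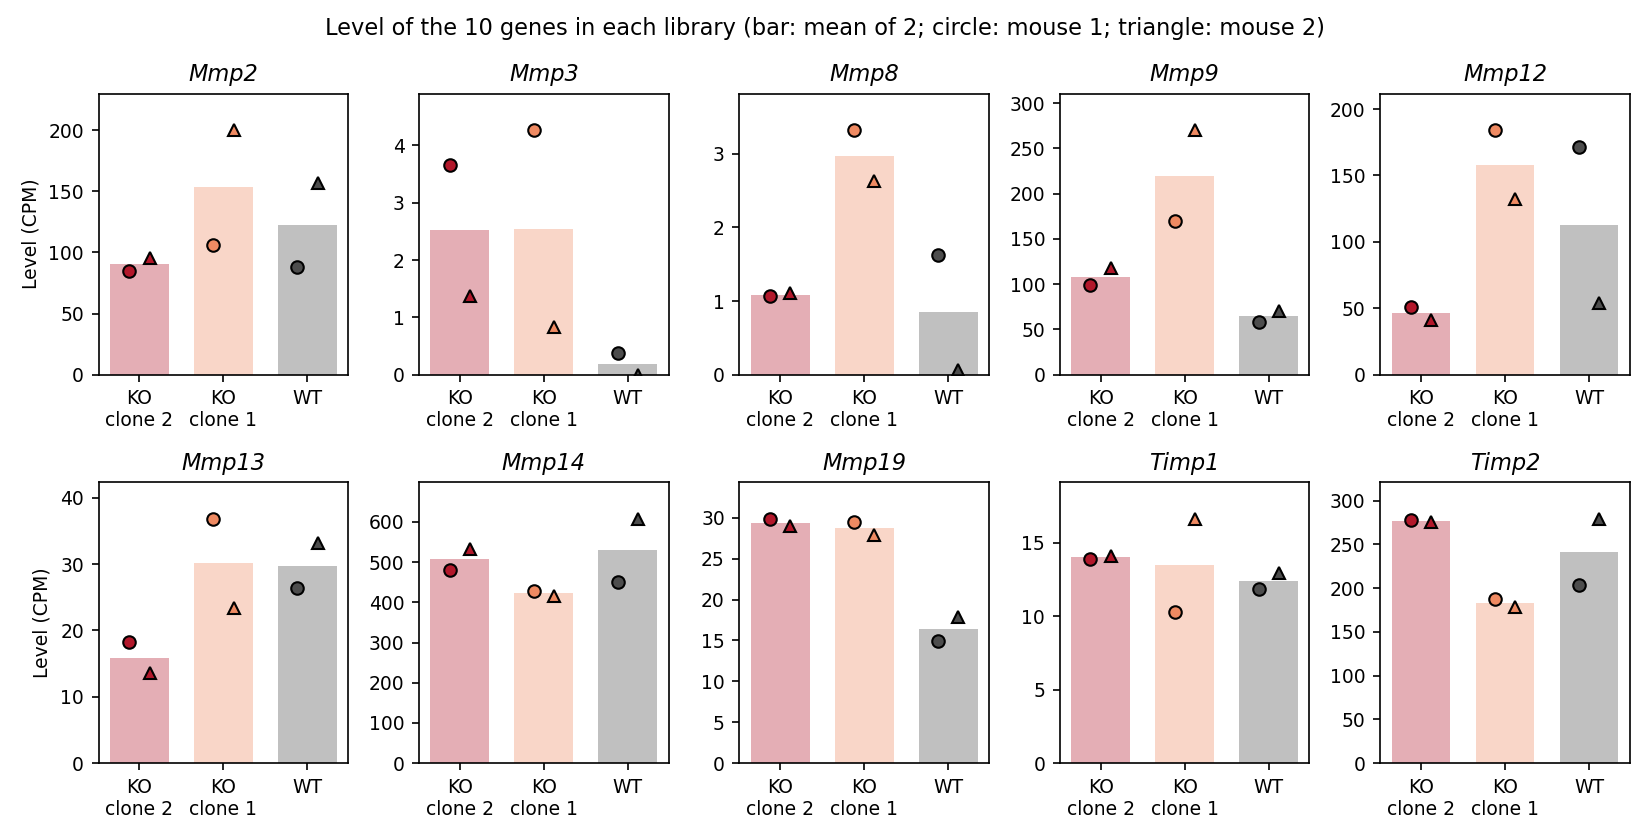
CPM of each of the 10 genes, 1 panel per gene with its own linear axis, in KO clone 2, KO clone 1 and WT; bars are the mean of 2 mice, circles mouse 1 and triangles mouse 2. Mmp3, Mmp9 and Mmp19 are above both WT mice in all 4 KO mice, Mmp12 is low in both KO clone 2 mice and in WT mouse 2, and Mmp3 and Mmp8 are below 5 CPM throughout.

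The first question of the design is how macrophages from Xkr8 KO tumours differ from those of WT tumours. With edgeR's quasi-likelihood test and Benjamini-Hochberg adjustment over the 15560 genes tested, 0 of the 10 members passed an adjusted p of 0.05 in KO against WT, where 0.135% of all genes did. At an unadjusted p below 0.05 there were 3 members, Mmp3, Mmp9 and Mmp19, all with higher means in KO, against 6.25% of all genes with a higher mean and 7.38% with a lower one. These were also the members whose 4 KO libraries all lay above both WT libraries (12.9% of all genes did so), and no member had all KO libraries below WT (10.7% of all genes). DESeq2 put the same 3 past an adjusted p of 0.05, along with 3.21% of all genes, and limma-voom put none of the members there (0.103% of all genes). Of the 10 log2 fold changes 5 were positive and 5 negative, with a median of 0.07, beside a median of 0.00 over all genes.

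Each clone was also set against WT, in a fit of 3 groups that share the same WT libraries, so the 2 comparisons are not independent. In KO clone 2 against WT, 0 members passed (0.00643% of all genes), 5 had an unadjusted p below 0.05, and DESeq2 passed 2, Mmp3 and Mmp19 (2.99% of all genes). The 5 were Mmp3, Mmp9 and Mmp19 with higher means in the clone (5.12% of all genes) and Mmp12 and Mmp13 with lower ones (6.17%). Both KO clone 2 libraries lay above both WT libraries for Mmp3, Mmp9, Mmp19 and Timp1 (26.5% of all genes) and below them for Mmp12 and Mmp13 (25.3%). In KO clone 1 against WT, 0 members passed (0.00643%), 3 had an unadjusted p below 0.05, again Mmp3, Mmp9 and Mmp19 with higher means (4.25% of all genes were higher and 2.85% lower at this p), and DESeq2 passed Mmp9 (1.74%). Both KO clone 1 libraries lay above WT for Mmp3, Mmp8, Mmp9 and Mmp19 (17.4%) and below WT for Mmp14 and Timp2 (15.1%). limma-voom passed no member in either comparison (0.00643% of all genes in each).

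Between the clones, KO clone 2 against KO clone 1, 0 members and 0% of all genes passed by edgeR's quasi-likelihood test. There were 4 members with an unadjusted p below 0.05, Mmp9, Mmp12 and Mmp13 with lower means in clone 2 (1.91% of all genes) and Timp2 with a higher one (1.32%). DESeq2 passed none of the members (0.752% of all genes), nor did limma-voom (0%). The clones' libraries did not overlap for 7 of the 10 members: Mmp14 and Timp2 were higher in clone 2 (21.8% of all genes were), and Mmp2, Mmp8, Mmp9, Mmp12 and Mmp13 were lower (22.7%).

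**Figure D2:**
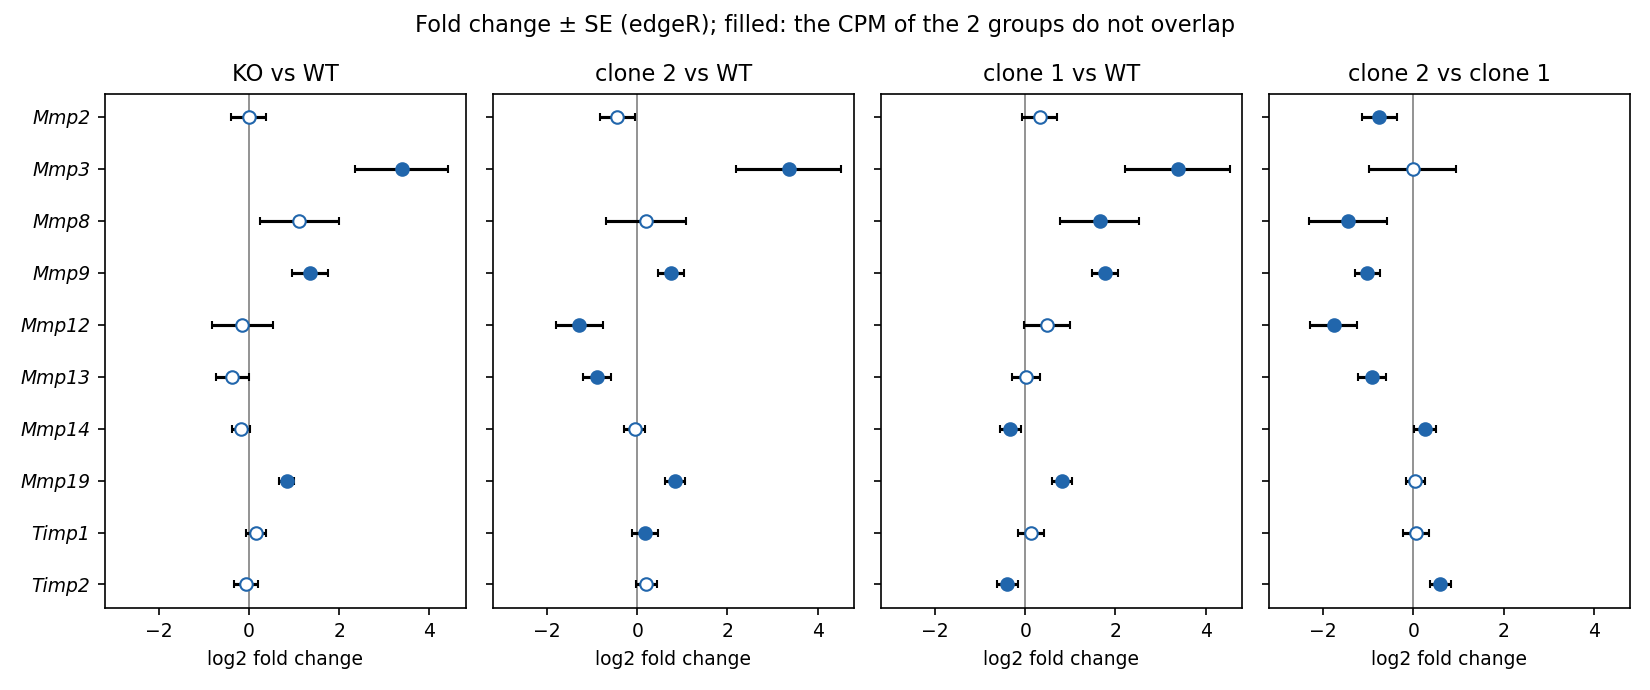
Log2 fold change of each of the 10 genes by edgeR, with bars of 1 SE, in KO against WT, KO clone 2 against WT, KO clone 1 against WT and KO clone 2 against KO clone 1; filled points mark genes whose CPM did not overlap between the 2 groups. Mmp3, Mmp9 and Mmp19 are filled and above 0 in the 3 comparisons with WT, and between the clones Mmp2, Mmp8, Mmp9, Mmp12 and Mmp13 are filled and below 0; no adjusted p was below 0.05.

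Mmp14 (chromosome 14, 54431612 to 54445364, plus strand, GRCm38) encodes a membrane-anchored collagenase. Its level was 479.5 and 534 CPM in KO clone 2, 428 and 416 CPM in KO clone 1, and 451 and 608 CPM in WT. Clone 1 was the lowest group, and the clone 2 values lay between the WT mice. In KO against WT the log2 fold change was -0.19 ± 0.20 (SE), with a 95% interval of -0.66 to 0.28 (edgeR, adjusted p = 0.615). It was -0.06 ± 0.24 in clone 2 against WT, -0.33 ± 0.24 in clone 1 against WT and 0.26 ± 0.24 in clone 2 against clone 1, with adjusted p-values of 0.898, 0.726 and 1.

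Mmp2 (chromosome 8, 92827291 to 92853420, plus strand) encodes a gelatinase whose proenzyme MMP14 activates. It stood at 85.1 and 95.2 CPM in KO clone 2, 106 and 200 CPM in KO clone 1, and 88.2 and 157 CPM in WT. The mice of clone 1 and of WT spread widely and overlapped each other, while both clone 2 mice were at the low end. In KO against WT the log2 fold change was -0.01 ± 0.39 (95% interval -0.92 to 0.90, edgeR adjusted p = 0.99). Clone 2 against clone 1 gave -0.76 ± 0.39 (adjusted p = 1).

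Mmp9 (chromosome 2, 164940780 to 164955850, plus strand) encodes the other gelatinase, which macrophages and neutrophils make. Its level was 98.9 and 118 CPM in KO clone 2, 169.6 and 270.2 CPM in KO clone 1, and 58.7 and 70.2 CPM in WT. The 3 groups did not overlap, with clone 1 highest and WT lowest. The means were 164 ± 76.8 CPM in KO (SD, n = 4) and 64.5 ± 8.09 CPM in WT (SD, n = 2). In KO against WT the log2 fold change was 1.35 ± 0.41, a ratio of 2.55 (95% interval on the log2 scale 0.39 to 2.31), with an unadjusted p of 0.0121 and an adjusted p of 0.286 in edgeR's quasi-likelihood test. DESeq2 gave 1.34 ± 0.41 (adjusted p = 0.0342). Clone 1 against WT gave 1.77 ± 0.29 (interval 1.07 to 2.47, edgeR adjusted p = 0.18, DESeq2 adjusted p = 5.92e-05), and 0.00852 was edgeR's adjusted p when genes of 1 count or more were all kept, a setting at which 0.571% of all genes passed. Without WT mouse 1, when 34.5% of all genes passed, edgeR's adjusted p for clone 1 was 0.00917, and without WT mouse 2 it was 0.0708. Clone 2 against WT gave 0.75 ± 0.28 (interval 0.07 to 1.43, edgeR adjusted p = 0.428, DESeq2 adjusted p = 0.271). Clone 2 against clone 1 gave -1.02 ± 0.28 (interval -1.71 to -0.34, edgeR unadjusted p = 0.00986, adjusted p = 0.904).

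The neutrophil marker list bears on Mmp9 and on Mmp8, since neutrophil granules hold both enzymes. Its 11 genes summed to 54.0 to 72.4 CPM in the KO libraries and 38.9 to 39.1 CPM in the WT libraries. The defining genes S100a8, S100a9, Ly6g, Retnlg, Mpo, Elane, Camp, Ngp and Ltf, 9 of the 11, were below 1 CPM in every library, and Csf3r and Cxcr2 made up the rest. Of the 7 tested, none passed in KO against WT (edgeR adjusted p = 0.0891 to 0.393). All 4 KO libraries lay above both WT libraries for 5 of them (12.9% of all genes did so). These were Csf3r, at 44.9 to 61.6 CPM in KO against 25.9 and 26.3 CPM in WT, and S100a8, Ly6g, Retnlg and Ltf at their low levels. Cxcr2 had all KO libraries below WT (10.7% of all genes did so), at 6.08 to 8.87 CPM in KO against 11.9 and 12.9 CPM in WT. The monocyte, T and NK cell and endothelial sums were also higher in KO than in WT, as given above. By edgeR in KO against WT, 1 of 7 monocyte genes passed, Ly6c2 (log2 fold change 4.72 ± 0.27, adjusted p = 0.00279). So did 3 of 8 T and NK genes, Klrk1, Cd3g and Cd2 (2.63, 3.82 and 2.70, adjusted p = 0.0163, 0.0281 and 0.0327). None of the 4 endothelial genes tested passed, and 0.135% of all genes did. The part of these and of the neutrophil genes in the Mmp9 values was not tested.

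Mmp12 (chromosome 9, 7344381 to 7369499, plus strand), the macrophage elastase,, stood at 51.1 and 41.5 CPM in KO clone 2, 184 and 132 CPM in KO clone 1, and 171 and 54.3 CPM in WT. Both clone 2 mice were below both clone 1 mice and below both WT mice, and the WT mice lay on either side of the gap. KO against WT gave a log2 fold change of -0.15 ± 0.67 (95% interval -1.70 to 1.41, edgeR adjusted p = 0.914).

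The Mmp12 difference between the clones was -1.77 ± 0.52 on the log2 scale, with a mean of 46.2 ± 6.78 CPM in clone 2 and 158 ± 36.9 CPM in clone 1 (SD, n = 2 each; 95% interval -3.03 to -0.52, unadjusted p = 0.0128, edgeR adjusted p = 0.946). The same difference passed when the spread was estimated without the WT libraries: -1.77 ± 0.20 with the KO libraries alone (adjusted p = 0.0308, at which 0.522% of all genes passed), and adjusted p-values of 0.0241 without WT mouse 2 (0.541%) and 0.0274 without WT mouse 1 (0.486%). DESeq2 on all 6 libraries gave -1.75 with an adjusted p of 0.104. Clone 2 against WT gave -1.29 ± 0.52 (interval -2.53 to -0.05, edgeR adjusted p = 0.438). That value depends on WT mouse 2: without that library it was -1.91 (adjusted p = 0.0262, 1.16% of all genes passing), and without WT mouse 1 it was -0.22 (adjusted p = 0.492). Clone 1 against WT gave 0.48 ± 0.51 (adjusted p = 0.747), and without WT mouse 1 it was 1.55 (adjusted p = 0.00639, 34.5% of all genes passing), and without WT mouse 2 it was -0.14 (adjusted p = 0.895). Mmp12 shares 157 exonic bases with Mmp1b on the opposite strand, which had at most 0.121 CPM in any library.

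Mmp13 and Mmp8 encode secreted collagenases. Mmp13 (chromosome 9, 7272514 to 7283331, plus strand) stood at 18.2 and 13.6 CPM in KO clone 2, 36.8 and 23.4 CPM in KO clone 1, and 26.3 and 33.2 CPM in WT. Clone 2 was the lowest group, and clone 1 and WT overlapped. Clone 2 against clone 1 gave a log2 fold change of -0.92 ± 0.31 (95% interval -1.67 to -0.18, unadjusted p = 0.0225, edgeR adjusted p = 1), and clone 2 against WT gave -0.90 ± 0.31 (interval -1.65 to -0.16, adjusted p = 0.407). Without WT mouse 1, when 40.2% of all genes passed, clone 2 against WT was -1.05 (adjusted p = 0.0344), and without WT mouse 2 it was -0.75 (adjusted p = 0.353). Clone 1 against WT gave 0.02 ± 0.31 (adjusted p = 0.983), and KO against WT gave -0.37 ± 0.37 (adjusted p = 0.596).

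Mmp8 (chromosome 9, 7558456 to 7568485, plus strand) was low in all libraries. It had 42 and 46 counts in KO clone 2, 137 and 101 counts in KO clone 1, and 74 counts and 1 count in WT. As levels these were 1.07 and 1.11 CPM in KO clone 2, 3.32 and 2.63 CPM in KO clone 1, and 1.63 and 0.0688 CPM in WT. The WT mice lay on both sides of clone 2. Log2 fold changes were 1.11 ± 0.88 in KO against WT, 0.20 ± 0.89 in clone 2 against WT, 1.65 ± 0.88 in clone 1 against WT and -1.45 ± 0.87 in clone 2 against clone 1 (edgeR adjusted p = 0.517, 0.913, 0.722 and 1). Against the single count of WT mouse 2 alone, without WT mouse 1, the values were 4.83 for KO (adjusted p = 0.0266), 3.93 for clone 2 (adjusted p = 0.00956) and 5.38 for clone 1 (adjusted p = 0.0037), when 37.5%, 40.2% and 34.5% of all genes passed. Without WT mouse 2 they were 0.30 for KO (adjusted p = 0.956), -0.60 for clone 2 (adjusted p = 0.556) and 0.84 for clone 1 (adjusted p = 0.506).

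Mmp3 (chromosome 9, 7445822 to 7455975, plus strand) encodes stromelysin-1, a protease of broad range. It had 144 and 57 counts in KO clone 2, 176 and 32 counts in KO clone 1, and 17 and 0 counts in WT. As levels these were 3.66 and 1.37 CPM in KO clone 2, 4.26 and 0.833 CPM in KO clone 1, and 0.373 and 0 CPM in WT. All 4 KO libraries were above both WT libraries, and within each clone mouse 1 was higher than mouse 2. The 0 in WT mouse 2 allows a level of up to 0.206 CPM at its depth (3 counts, counting error only). The log2 fold change was 3.38 ± 1.03 in KO against WT, with a 95% interval of 0.99 to 5.78 (unadjusted p = 0.0119, edgeR adjusted p = 0.286, DESeq2 adjusted p = 0.00461). Clone 2 against WT gave 3.36 ± 1.17 (edgeR adjusted p = 0.412, DESeq2 adjusted p = 0.0424) and clone 1 against WT gave 3.38 ± 1.17 (edgeR adjusted p = 0.614, DESeq2 adjusted p = 0.0632). These values depend on single libraries: without WT mouse 2 they were 2.73 in KO, 2.72 in clone 2 and 2.74 in clone 1 against WT, without clone 1 mouse 1 the value of clone 1 was 1.81, and without clone 2 mouse 1 that of clone 2 was 2.52. Between the clones it was -0.02 ± 0.97 (interval -2.35 to 2.31, adjusted p = 1). Without WT mouse 1 the remaining WT library is at 0, so no fold is given; edgeR's adjusted p for KO against WT was then 0.0295, when 37.5% of all genes passed.

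Mmp19 (chromosome 10, 128790910 to 128800824, plus strand), a secreted protease that cuts basement membrane proteins, had the smallest p of the members in KO against WT. It stood at 29.9 and 28.9 CPM in KO clone 2, 29.5 and 27.8 CPM in KO clone 1, and 14.98 and 17.8 CPM in WT. The 4 KO libraries lay close together, above both WT libraries. The means were 29.0 ± 0.893 CPM in KO (SD, n = 4) and 16.4 ± 2.01 CPM in WT (SD, n = 2). The log2 fold change was 0.83 ± 0.17, a ratio of 1.77 (95% interval on the log2 scale 0.42 to 1.23), with an unadjusted p of 0.00166, the rank of which was 175 of 15560 genes, and an adjusted p of 0.141 in edgeR's quasi-likelihood test. DESeq2 gave an adjusted p of 0.00219. Without WT mouse 1 edgeR gave 0.72 (adjusted p = 0.011, 37.5% of all genes passing), and without WT mouse 2 it gave 0.93 (adjusted p = 0.0774, 0.174% passing).

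By clone, Mmp19 gave 0.84 ± 0.22 in clone 2 against WT (edgeR adjusted p = 0.284, DESeq2 adjusted p = 0.0329) and 0.81 ± 0.22 in clone 1 against WT (edgeR adjusted p = 0.43, DESeq2 adjusted p = 0.085). Without WT mouse 1, where 40.2% and 34.5% of all genes passed, the edgeR values were 0.74 for clone 2 (adjusted p = 0.0131) and 0.70 for clone 1 (adjusted p = 0.0185). Without WT mouse 2 they were 0.95 for clone 2 (adjusted p = 0.0542) and 0.91 for clone 1 (adjusted p = 0.0835). Clone 2 against clone 1 gave 0.04 ± 0.21, with an interval of -0.48 to 0.55 (adjusted p = 1). Mmp19 shares 789 exonic bases with Tmem198b and 212 with Gm47093, both on the opposite strand. Whether strand was used in counting is not stated, so reads of those stretches cannot be told apart. No level of Gm47093 was analysed here. Tmem198b itself stood at 7.63 and 8.08 CPM in KO clone 2, 7.66 and 10.4 CPM in KO clone 1, and 7.91 and 14.03 CPM in WT, and its groups overlapped. The monocyte, T and NK cell and endothelial sums separate KO from WT in the same way. Among the genes of these lists Ly6c2, Klrk1, Cd3g and Cd2 passed, as given above. The part of these lists in the Mmp19 and Mmp3 values was not tested, nor was that of the fibroblast genes. Like Mmp3, the fibroblast genes Col1a1, Col1a2, Lum, Thy1, Postn and Fap were higher in mouse 1 than mouse 2 of each clone. Col3a1, Dcn, Pdgfra and Pdgfrb were lower in mouse 1 of each clone.

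The inhibitors among the 10 members are Timp1 and Timp2, and Timp3 is given below with the other genes of the family. Timp1 (chromosome X, 20870166 to 20874735, plus strand) stood at 13.9 and 14.1 CPM in KO clone 2, 10.3 and 16.6 CPM in KO clone 1, and 11.8 and 12.9 CPM in WT. The clone 1 mice enclosed all the others. Its log2 fold change was 0.15 ± 0.23 in KO against WT (95% interval -0.39 to 0.69, edgeR adjusted p = 0.726), 0.18 ± 0.29 in clone 2 against WT, 0.12 ± 0.29 in clone 1 against WT and 0.06 ± 0.29 between the clones.

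Timp2 (chromosome 11, 118301069 to 118355740, minus strand) stood at 278 and 276 CPM in KO clone 2, 187 and 179 CPM in KO clone 1, and 204 and 279 CPM in WT. Replicates of each clone lay close together and the clones apart, while WT mouse 1 lay between them and WT mouse 2 with clone 2. Clone 2 against clone 1 gave a log2 fold change of 0.60 ± 0.23 (95% interval 0.04 to 1.16, unadjusted p = 0.0396, edgeR adjusted p = 1), with means of 277 ± 1.91 CPM in clone 2 and 183 ± 5.83 CPM in clone 1 (SD, n = 2 each). KO against WT gave -0.07 ± 0.26 (interval -0.67 to 0.53, adjusted p = 0.893). Without WT mouse 1, when 34.5% of all genes passed, clone 1 against WT was -0.60 for Timp2 (adjusted p = 0.0166) and -0.51 for Mmp14 (adjusted p = 0.0378), against -0.40 ± 0.23 (adjusted p = 0.722) for Timp2 and -0.33 ± 0.24 for Mmp14 with both WT mice. Without WT mouse 2 these were -0.18 for Timp2 (adjusted p = 0.727) and -0.12 for Mmp14 (adjusted p = 0.853).

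Set against each other per kb, the proteases and inhibitors among the members gave different ratios in the 3 groups. The summed level of the 8 Mmp members over that of the 2 Timp members was 1.82 and 1.98 in KO clone 2, 3.40 and 3.74 in KO clone 1, and 2.4 and 2.24 in WT. Clone 1 was above WT and clone 2 below it, in both mice of each. The ratio of Mmp9 to Timp1, the inhibitor that binds proMMP9, was 1.78 and 2.09 in KO clone 2, 4.14 and 4.07 in KO clone 1, and 1.25 and 1.36 in WT. The ratio of Mmp14 to Timp2 was 1.13 and 1.27 in KO clone 2, 1.49 and 1.52 in KO clone 1, and 1.45 and 1.42 in WT. Of the summed Mmp level, Mmp9 made up 17.6% and 19.4% in KO clone 2, 23.7% and 31.6% in KO clone 1, and 10.6% and 10.3% in WT. Mmp14 made up 50.8% and 52.3% in KO clone 2, 35.4% and 28.9% in KO clone 1, and 48.2% and 52.8% in WT, so that it was the most abundant protease transcript per kb in every library except the second of clone 1, where Mmp9 was. These ratios are descriptions of RNA levels with no test.

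**Figure D3:**
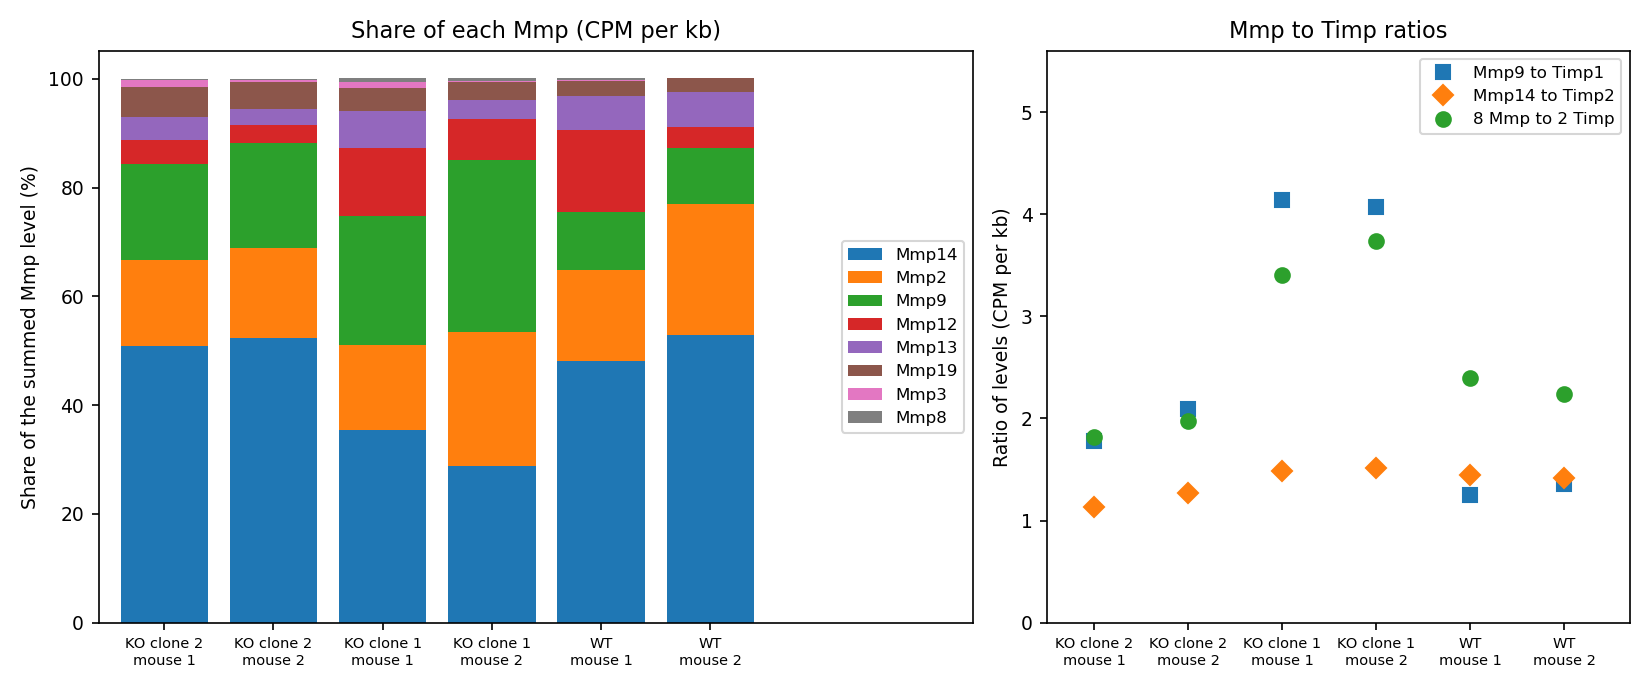
Left, the share of the summed CPM per kb of the 8 Mmp members held by each gene in each library; right, the ratio of the summed Mmp to the summed Timp level, of Mmp9 to Timp1 and of Mmp14 to Timp2, with 1 point per mouse. Mmp9 holds 23.7% and 31.6% in KO clone 1 against 10.6% and 10.3% in WT, and the Mmp to Timp ratio is highest in KO clone 1 and lowest in KO clone 2.

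Mmp13, Mmp12, Mmp3 and Mmp8 lie in this order within a cluster of 10 Mmp genes on chromosome 9 that spans 427.1 kb of GRCm38. Of the cluster's genes 6 passed the filter on low counts. The other 2 tested, Mmp10 and Mmp27, ranged from 0.0509 to 1.19 CPM, while Mmp1b, Mmp1a, Mmp20 and Mmp7 did not pass the filter and were at or below 0.275 CPM. In clone 2 against clone 1 5 of the 6 tested genes, Mmp13, Mmp12, Mmp10, Mmp8 and Mmp27, had both clone 2 libraries below both clone 1 libraries (22.7% of all genes did), and Mmp3, which lies between Mmp12 and Mmp10, overlapped. Counts were low for Mmp10, with 2 and 6 in clone 2 against 21 and 11 in clone 1. For Mmp27 they were 18 and 21 against 49 and 28. None of the 6 passed by edgeR's quasi-likelihood test on all libraries. Mmp12 passed with the KO libraries alone and with either WT mouse left out, as given above.

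**Figure D4:**
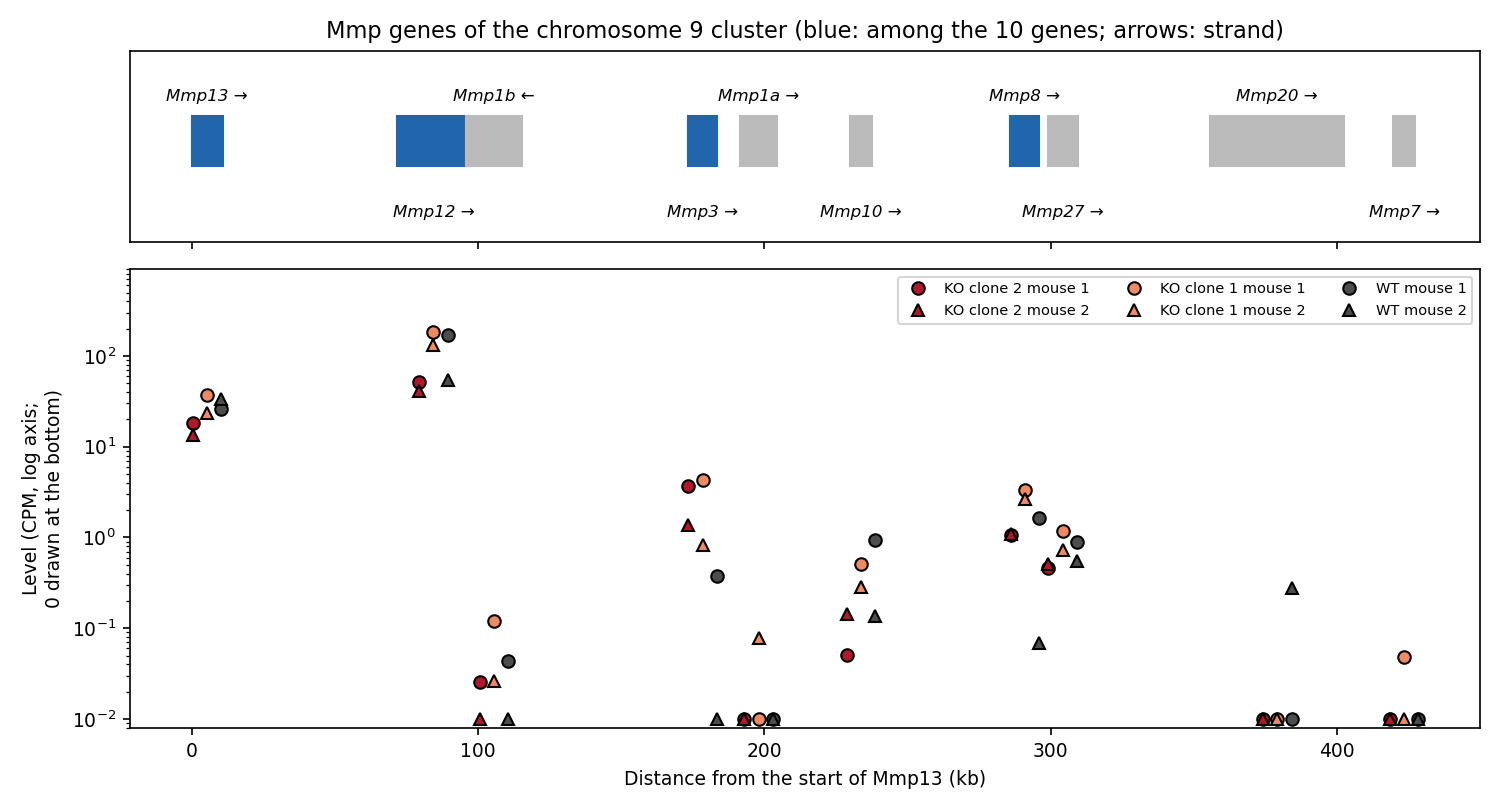
Top, the 10 Mmp genes of the chromosome 9 cluster by distance in kb from the start of Mmp13; bottom, their CPM in each library on a log axis at the same distance, with values of 0 drawn at the foot of the axis. Mmp12 and Mmp13 are above 10 CPM in every library, and the other genes are below 5 CPM.

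The promoters of these genes carry known response elements, and AP-1, the factor of Fos and Jun, is a textbook regulator of MMP13 and MMP3. RefSeq windows of the 250 bases before a start site (GRCm38.p6) were at hand for 7 of the 10 members, with 8 start sites. There was none for Mmp2, Mmp9 or Mmp19. Both strands of the AP-1 word were searched as TGAGTCA and TGACTCA, which are reverse complements of each other, and 3 of the 8 windows held the word, those of Mmp13, Mmp3 and the second start of Mmp12, against 4.46% of all 32851 windows of that length. Since AP-1 is already known for MMP13 and MMP3, matches there could be foreseen, and the share is no test. The word was not in the windows of Mmp8, Mmp14, Timp1, Timp2 or the first start of Mmp12. These 3 windows are shown because they belong to the cluster and share this element near the start site; the AP-1 word is in capitals, all 3 are on the plus strand of chromosome 9, and they are chr9:7272264-7272513 for Mmp13, chr9:7347124-7347373 for Mmp12 and chr9:7445572-7445821 for Mmp3.
Mmp13: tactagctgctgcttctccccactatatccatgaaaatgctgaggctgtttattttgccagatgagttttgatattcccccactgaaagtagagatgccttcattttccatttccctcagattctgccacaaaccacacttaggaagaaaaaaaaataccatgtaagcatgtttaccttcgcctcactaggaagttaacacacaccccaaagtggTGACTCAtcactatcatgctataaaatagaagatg
Mmp12: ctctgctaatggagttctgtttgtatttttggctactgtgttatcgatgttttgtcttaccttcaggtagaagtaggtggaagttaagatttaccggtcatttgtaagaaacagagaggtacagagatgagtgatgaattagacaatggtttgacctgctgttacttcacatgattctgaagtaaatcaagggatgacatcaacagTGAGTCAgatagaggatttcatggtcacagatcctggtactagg
Mmp3: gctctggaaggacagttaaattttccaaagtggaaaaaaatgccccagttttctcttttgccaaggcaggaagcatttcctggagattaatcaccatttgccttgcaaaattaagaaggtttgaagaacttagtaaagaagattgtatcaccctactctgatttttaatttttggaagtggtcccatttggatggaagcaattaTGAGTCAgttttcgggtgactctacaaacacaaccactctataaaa
Counted from -1 at the base before the start, the word begins at -35 in Mmp13, -44 in Mmp12 and -46 in Mmp3. The word TATAAA, on the plus strand of the gene, begins at -16 in Mmp13 and -7 in Mmp3 (2 of 8 windows, against 7.59% of all windows). The ETS word AGGAAG, or CTTCCT on the other strand, was in 6 of the 8 windows, against 29.5% of all windows. Mmp13 and Mmp12, both with the AP-1 word, had lower means in clone 2 than in clone 1, and Mmp3, with the same word, averaged 2.52 CPM in clone 2 and 2.55 CPM in clone 1. Mmp8, whose window lacks the word, also had a lower mean in clone 2, at 1.087 CPM against 2.975 CPM in clone 1. Mmp14, Timp1 and Timp2, whose windows lack it too, had higher means in clone 2. A match of letters is a description of the sequence and not a site of binding.

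Of the 16 other Mmp and Timp genes in the table, 10 were tested and none passed in any of the 4 comparisons by edgeR's quasi-likelihood test. Timp3, the inhibitor bound to the matrix, had the smallest adjusted p. It stood at 1.70 and 1.08 CPM in KO clone 2, 7.49 and 5.44 CPM in KO clone 1, and 1.80 and 1.24 CPM in WT, with clone 1 above all other libraries. Its log2 fold change was -2.21 ± 0.40 in clone 2 against clone 1 (unadjusted p = 0.00112, adjusted p = 0.387) and 2.06 ± 0.40 in clone 1 against WT (adjusted p = 0.258). Mmp11, stromelysin-3, stood at 12.7 and 13.4 CPM in KO clone 2, 10.3 and 15.3 CPM in KO clone 1, and 15.04 and 19.3 CPM in WT. Mmp16, another membrane-anchored enzyme, stood at 7.78 and 8.20 CPM in KO clone 2, 5.36 and 4.45 CPM in KO clone 1, and 13.7 and 5.37 CPM in WT. Mmp25, a membrane-anchored enzyme of leukocytes, stood at 10.99 and 7.57 CPM in KO clone 2, 12.2 and 6.80 CPM in KO clone 1, and 2.48 and 11.5 CPM in WT, so the WT mice enclosed nearly the whole range. Mmp10, Mmp17, Mmp23, Mmp24, Mmp27 and Mmp28 were between 0.0509 and 1.42 CPM, and Mmp1a, Mmp1b, Mmp7, Mmp15, Mmp20 and Mmp21 did not pass the filter.

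Of 15 tested genes of the plasminogen system and other regulators of MMPs, none passed in any of the 4 comparisons. In KO against WT 4 had an unadjusted p below 0.05 with a higher mean (6.25% of all genes) and 3 with a lower one (7.38%), and the median log2 fold change was 0.24. Plau, urokinase, the protease that makes the MMP activator plasmin, stood at 159.9 and 183 CPM in KO clone 2, 239 and 259.9 CPM in KO clone 1, and 441 and 353 CPM in WT. All 4 KO libraries were below both WT libraries, opposite to Mmp9 and Mmp19. Its log2 fold change was -0.92 ± 0.24 in KO against WT (edgeR adjusted p = 0.229) and -1.21 ± 0.23 in clone 2 against WT (adjusted p = 0.161). Thbs1, thrombospondin-1, which binds MMPs, averaged 467 ± 67.8 CPM in KO (n = 4) and 204 ± 88.7 CPM in WT (n = 2), a log2 fold change of 1.19 ± 0.29 (adjusted p = 0.205). S100a10, part of a plasminogen receptor, averaged 212 ± 29.5 CPM in KO and 113 ± 46.5 CPM in WT, at 0.91 ± 0.28 (adjusted p = 0.286).

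All 15 ADAM and ADAMTS genes listed, proteases of the same superfamily, were tested and none passed in any comparison. Between the clones 1 had an unadjusted p below 0.05 with a higher mean in clone 2 (1.32% of all genes) and 2 with a lower one (1.91%). Adamts9, which cuts proteoglycans, averaged 3.39 ± 0.512 CPM in clone 2, 19.7 ± 2.73 CPM in clone 1 and 14.96 ± 4.63 CPM in WT (SD, n = 2 each), with a log2 fold change of -2.54 ± 0.32 in clone 2 against clone 1 (edgeR adjusted p = 0.181) and -2.13 ± 0.32 in clone 2 against WT (adjusted p = 0.121). Adam8 averaged 316 ± 19.7 CPM in clone 2, 728 ± 152 CPM in clone 1 and 669 ± 233 CPM in WT, at -1.21 ± 0.32 between the clones (adjusted p = 0.808). Adam19 went the other way, with 34.7 ± 0.234 CPM in clone 2, 14.2 ± 3.73 CPM in clone 1 and 11.2 ± 1.06 CPM in WT, at 1.29 ± 0.26 between the clones (adjusted p = 0.473).

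The genes whose levels ran most like those of the 3 leading members were sought among 10208 genes of at least 5 CPM on average, by Pearson's r of log2(CPM + 1) over the 6 libraries. With so few libraries, which share depth and the outlying WT mouse 2, high values are easily reached, and they are given as a description. For Mmp14 they were Map4k4 (r = 0.979), Fbxw5 (0.977) and Cebpa (0.976). For Timp2 they were Fbxo38 (0.991), Hsdl2 (0.989) and Lama4 (0.988). For Mmp9 they were Ccnd1 and Tmem192 (0.969 each) and Snx21 (0.967).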

How the data were processed

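The values deposited are estimated counts for each gene symbol, whole numbers with no scaling to library size; per the submitters' processing notes, Salmon 0.7.2 and mm10 were used, with no role given. Total RNA was depleted of ribosomal RNA, per the labels' protocols. Not given in the sources used here are the transcript set, whether strand was used, and the markers of the gate. Of the symbols, 20429 (93.9%) matched GENCODE M21, which gave positions and exon lengths on GRCm38. Genes were filtered with filterByExpr (minimum count 10, minimum total 15), scaled with TMM and tested, two-sided, with edgeR 4.0.16 (R 4.3.3). KO against WT came from a fit by genotype, in which the difference between clones counts as spread, though mice that share a clone are not independent of each other; comparisons by clone came from a fit of 3 groups. Standard errors are the log2 fold change over the square root of F, and 95% intervals use edgeR's total degrees of freedom. The fits were also run on simulated counts with the same spread for all genes and libraries. No library stood apart in that simulation, so it does not cover a library like WT mouse 2. Replicates are separate mice, per the labels, and replicates differed by more than counting noise. Alternatives were RLE factors, DESeq2 1.42.0, limma-voom (limma 3.58.1), no filter, a filter of 5 CPM in 2 libraries, the mouse number as a block, Rn45s removed, the other grouping of samples, and each library left out. All members were named whatever their result, and of each list up to 3 genes per comparison with the smallest p. The members, lists and tests were chosen with earlier results of these data known.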

Additional observations from a re-analysis of the deposited data

How the results depend on the processing

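With 2 mice a group, 1 of the WT pair standing apart, precision is limited by the spread between mice. For Mmp3 and Mmp8 low counts add to this, with 0 and 1 in WT mouse 2. No member passed with RLE factors, limma-voom, the 5 CPM filter (which removes Mmp3 and Mmp8), Rn45s removed or any KO library left out. The number of members passed was 3 in KO against WT, 1 in clone 1 against WT and 2 in clone 2 against WT with DESeq2, 1 in clone 1 against WT with no filter, and 1 between the clones with the KO libraries alone. With a library left out it was 0 to 3 in KO against WT, 0 to 6 in clone 1 against WT, 0 to 3 in clone 2 against WT and 0 to 1 between the clones, the highest against WT being those without WT mouse 1, when 34.5% to 40.2% of all genes passed against WT and the lone WT mouse is assumed to vary like the other groups. Whether mice of the same number were paired is not stated. Differences between mouse 1 and mouse 2 correlated at -0.304 (WT and clone 1), 0.0606 (WT and clone 2) and 0.231 (the clones) across 12992 genes. Both values with WT include the outlying WT mouse 2, so they cannot decide whether the numbers mark a pairing. With the number as a replicate block 0 members passed in each comparison, as without it. Of 40 log2 fold changes, 26 kept their sign in every alternative, and of 552 values 33 changed sign. Signs changed in KO against WT for Mmp2 with no filter (0.022) and, with the block, for Mmp2 (0.013) and Mmp12 (0.019); in clone 1 against WT for Mmp13 with the 5 CPM filter (-0.019) and the block (-0.021); and between the clones for Mmp3 with DESeq2 (0.0016), limma-voom (0.21) and the block (0.25). Leaving out a library gave ranges that cross 0 in KO against WT for Mmp2 (-0.36 to 0.44), Mmp12 (-0.77 to 0.92), Mmp14 (-0.38 to 0.018) and Timp2 (-0.27 to 0.15), in clone 1 against WT for Mmp2 (-0.20 to 0.77), Mmp12 (-0.14 to 1.55), Mmp13 (-0.34 to 0.31) and Timp1 (-0.26 to 0.44), in clone 2 against WT for Mmp2 (-0.79 to 0.010), Mmp8 (-0.60 to 3.93) and Mmp14 (-0.25 to 0.15), and between the clones for Mmp3 (-0.88 to 1.59), Mmp19 (-0.0012 to 0.079) and Timp1 (-0.25 to 0.45). The cause was not tested.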
